A study of Mus musculus with 6 samples.

Results

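Eph receptors are the largest family of receptor tyrosine kinases, and ephrins are their membrane-bound ligands. The genes described here are 9 Eph receptor genes (Epha1, Epha2, Epha3, Epha4, Epha7, Ephb2, Ephb3, Ephb4 and Ephb6) and the ligand gene Efnb2. They were taken by name, and every non-control array probe whose RefSeq accession maps to one of them was used: 17 probes for 10 genes, out of 23462 genes that could be named. The study profiled isolated mouse acinar cells of 2 genotypes on a C57BL/6 background, with 3 samples each on 6 one-colour Agilent arrays. All 6 samples carry Ptf1aCre, a Cre recombinase under the control of a gene of the pancreatic lineage, and an oncogenic allele that Cre switches on. The KC samples carry nothing further, and the KCS samples also carry Setdb1flox/flox, loxP-flanked copies of the gene for a histone H3 lysine 9 methyltransferase. No sample without Cre or without that allele entered the comparison, and the labels give no age. Separate animals are not stated, so the p-values measure the spread between these samples, which may be technical.

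Because ephrins are anchored in the membrane, an Eph receptor is engaged where cells touch. The receptor then signals forward through its kinase domain, and the ephrin can signal in reverse into the cell that carries it. EphA receptors bind mainly the lipid-anchored ephrin-A ligands, and EphB receptors bind mainly the transmembrane ephrin-B ligands, with EphA4 also binding ephrin-B. The system is known for sorting cells into compartments, for axon guidance, for the arterial (ephrin B2) and venous (EphB4) identity of blood vessels, and for keeping cells in position in intestinal crypts (EphB2 and EphB3). In epithelia, EphA2 is known as a receptor that MAPK signalling can induce.

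The KCS samples differed from the KC samples over most of the array. Values are log2 processed signal minus the 75th percentile of that array, so every level and change is relative to that percentile, which lay between 61.2 and 68.6 scanner units in KC and between 347 and 423 in KCS. Over 27102 rows, 1 per named gene or unnamed probe, the median log2 fold change of KCS over KC was -0.19 on this scale and 2.70 with spike-in controls as the scale. Of the calls, 42.9% were higher in KCS with 75th percentile scaling, 96.8% when spike-in controls set the scale, 56.5% under median centring and 31.1% after normexp, another background correction. The defining acinar markers go against the cell type label in KCS: the summed scaled signal of 8 acinar genes was 13598 to 15742 in KC and 3.47, 15.0 and 1122 in KCS replicates 1, 2 and 3, and all 8 were called lower. In these bulk samples, fewer cells of a type and less RNA per cell cannot be told apart. The 1 probe of Setdb1 was at -0.91, -1.05 and -0.32 in KC and -0.28, -0.44 and -0.55 in KCS (adjusted p = 0.270), and where it lies relative to the floxed part is not known here, so it checks nothing about the genotype. The 6 arrays lay on 2 slides, the first with replicate 1 of both groups and the second with replicates 2 and 3.

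Of the 10 genes, Epha2, Epha3, Ephb2, Ephb4, Ephb6 and Efnb2 were called higher in KCS and Ephb3 was called lower (but higher with spike-in scaling), at an adjusted p below 0.05, while Epha1, Epha4 and Epha7 were not called. Over all rows 25.9% were called higher and 34.4% lower, shares given beside 6 of 10 higher and 1 of 10 lower. The 10 genes and the lists below were chosen with earlier results of these data known. Their counts therefore describe the chosen genes and are no test against these shares. The Ephb2 call rests on 1 of its 2 probes, and the other probe was called lower. All 10 genes passed the filter of being well above background on at least 3 arrays, but Epha3 and Epha7 passed through the KCS arrays alone. Of the 8 genes well above background on all 6 arrays, 5 were called higher and 1 lower. In a fit of such rows alone these counts were the same, and 12902 of 19121 rows were called in either direction. The median log2 fold change was 1.32 over the 10 genes, with Epha3 at its fitted value or at its bound, and 1.32 over those 8, against -0.36 over all rows well above background on every array. The 3 samples of each group did not overlap for 7 genes, 6 higher and 1 lower, where 29.8% of all rows were higher without overlap and 38.4% lower. Among those 8 the log2 fold changes ran from -1.55 (Ephb3) to 4.26 (Epha2), and 1.79% of all rows lay at or above Epha2. The Ephb4 and Ephb6 calls were each lost in 5 of the 6 fits that left out 1 array.

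**Figure D1:**
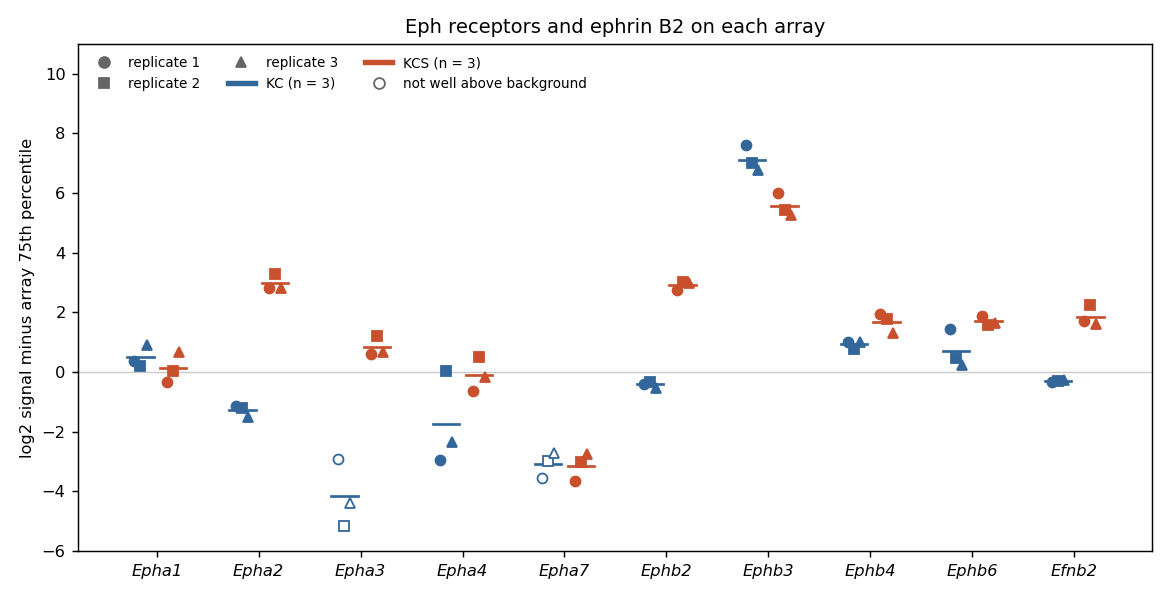
Scaled log2 signal (log2 processed signal minus the 75th percentile of the array) of the probe that stands for each of the 10 genes, for 3 KC and 3 KCS arrays. Lines are group means, marker shapes give the replicate number and open markers are arrays where the probe was not well above background. Epha2, Ephb2 and Efnb2 lie apart between the groups with tight replicates, though the other Ephb2 probe, not drawn here, was called lower. Ephb3 lies lower in KCS (though not with spike-in scaling), and the KC samples of Epha4 spread from -2.94 to 0.03.

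The stretches of 250 bases before the transcript start of 3 of these genes are shown because they span the responses: Epha2, the receptor with the largest change among those above background on all arrays, Efnb2, the only ligand, and Ephb3, the only gene called lower. The sequences are from RefSeq (GRCm38.p6), and all 10 genes matched by symbol, with 11 windows in all because Epha7 has 2 starts. Capitals mark matches, on either strand, to GGGCGG (the GC box, which SP1 family factors bind) or TATAAA (the TATA box).
Epha2, chr4:141300971-141301220, plus strand: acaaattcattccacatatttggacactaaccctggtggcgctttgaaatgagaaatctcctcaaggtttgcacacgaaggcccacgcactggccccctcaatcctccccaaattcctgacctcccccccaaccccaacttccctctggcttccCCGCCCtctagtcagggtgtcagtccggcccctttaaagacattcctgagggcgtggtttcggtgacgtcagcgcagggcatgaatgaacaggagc
Efnb2, chr8:8661243-8661492, minus strand: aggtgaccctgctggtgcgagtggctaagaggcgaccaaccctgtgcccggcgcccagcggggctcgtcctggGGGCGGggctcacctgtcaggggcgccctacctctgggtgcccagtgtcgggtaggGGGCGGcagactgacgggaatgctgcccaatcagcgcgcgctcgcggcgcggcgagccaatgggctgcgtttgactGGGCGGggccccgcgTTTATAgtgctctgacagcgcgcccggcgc
Ephb3, chr16:21204545-21204794, plus strand: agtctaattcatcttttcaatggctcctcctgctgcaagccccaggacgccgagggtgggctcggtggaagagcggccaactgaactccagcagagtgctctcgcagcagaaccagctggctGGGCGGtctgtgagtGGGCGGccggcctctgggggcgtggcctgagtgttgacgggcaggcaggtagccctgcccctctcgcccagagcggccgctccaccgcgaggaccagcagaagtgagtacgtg
A GGGCGG match was found in 9 of the 11 windows, with 3 in Efnb2, 2 in Ephb3 and 1 in Epha2, and in 32.7% of the 32851 RefSeq windows of the same length. The 2 Epha7 windows overlap and share their match, which is counted in both. All 11 windows were richer in G and C (54.4% to 76.8%) than the median window (52.4%). A TATAAA match was found in 1 window, that of Efnb2, against 12.4% of all windows, and TGANTCA, the AP-1 motif, in 0 windows, against 6.75%. By their letters, matches to different motifs cannot overlap. The windows of Epha2, Ephb3 and Efnb2 held 9, 16 and 27 CG dinucleotides, against a median of 6 over all windows. The matches describe the letters of these windows and are no evidence of binding.

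Among the EphA receptors, Epha2 and Epha3 were the members that rose. Epha2 encodes an epithelial receptor of ephrin-A ligands. It was at -1.16, -1.19 and -1.51 in the KC samples and at 2.83, 3.29 and 2.80 in the KCS samples. The groups lay far apart, with every KCS sample above every KC sample. The log2 fold change was 4.26 ± 0.22 (SE, n = 3 per group, adjusted p = 8.02e-05), a 19.1-fold higher relative signal. Before scaling, the Epha2 probe read 21.5 to 30.0 scanner units in KC and 2419 to 4126 in KCS.

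Epha3 encodes a receptor expressed in mesenchymal and neural tissue. Its stand-in probe (the brightest of a gene's probes on average) was at background in all 3 KC samples (-2.90, -5.17 and -4.38), meaning that none of them passed the scanner program's test of being well above it, and was at 0.60, 1.19 and 0.68 in KCS. The KC values are background readings and have no order. The bound was at least 13.9-fold higher for Epha3 and at least 8.35-fold for its second probe, which KC arrays did not measure either. The limma adjusted p-values, 5.72e-04 and 9.88e-04, come from fits that use the KC background readings and do not test these bounds.

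Epha4 encodes a receptor of both ligand classes, studied mostly in neurons and the limb. It was at -2.94, 0.03 and -2.34 in KC and at -0.62, 0.50 and -0.16 in KCS. KC replicate 2 lay among the KCS samples, so the groups overlapped. The log2 fold change was 1.65 ± 0.77 (SE, adjusted p = 0.107). Without KC replicate 2 it was 2.54 and passed (adjusted p = 0.00501, against up to 0.266 with 1 other array left out). After normexp, with all arrays, it was 0.54 (adjusted p = 0.16).

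Epha1 encodes the first described receptor of the family and is expressed in epithelia. It was at 0.36, 0.21 and 0.91 in KC and at -0.33, 0.02 and 0.68 in KCS. The groups overlapped, and the log2 fold change was -0.37 ± 0.33 (SE, adjusted p = 0.359). Epha7, a receptor studied mostly in the developing brain, was at -3.67, -3.03 and -2.75 in KCS, against readings of -3.57, -2.99 and -2.71 in KC, where no array was well above background. Relative to the 75th percentile the groups overlapped (log2 fold change -0.06 ± 0.33, adjusted p = 0.888). In scanner units the same Epha7 probe read 5.62 to 9.32 in KC and 30.9 to 51.8 in KCS, on arrays of different overall brightness.

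Among the EphB receptors, Ephb3 was bright and lower in KCS, Ephb4 and Ephb6 rose by smaller amounts, and Ephb2 gave opposite readings from its 2 probes. The probe that stands for Ephb2, which encodes a receptor of ephrin-B ligands, was at -0.40, -0.34 and -0.53 in KC and at 2.74, 3.03 and 2.98 in KCS (log2 fold change 3.34 ± 0.17, SE, adjusted p = 8.19e-05). The other Ephb2 probe was at 2.61, 1.91 and 1.89 in KC and at -0.86, -1.04 and -0.98 in KCS. For both probes the groups lay apart, in opposite directions. With every probe tested on its own, the second was called lower (log2 fold change -3.09 ± 0.24, SE, adjusted p = 1.72e-04). In scanner units it read 227 to 407 in KC and 176 to 216 in KCS, while the first read 42.5 to 54.4 and 2625 to 3455. Both probes carry the same transcript accession, so the files do not say which of them follows the receptor's messenger RNA, and the direction of Ephb2 is not settled by these arrays.

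Ephb3 encodes a receptor that acts with EphB2 in crypt positioning. It was at 7.60, 6.997 and 6.76 in KC and at 6.00, 5.44 and 5.26 in KCS. Every KCS sample lay below every KC sample. The log2 fold change was -1.55 ± 0.30 (SE, adjusted p = 0.00495), a 2.93-fold lower relative signal, but with spike-in scaling it was 1.34 (adjusted p = 0.0152), below the median of 2.70 over all rows on that scale. In scanner units Ephb3 read 6635 to 12908 in KC and 13274 to 25067 in KCS, a smaller increase in unscaled signal than that of the 75th percentile of the arrays.

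Ephb4 encodes the receptor of ephrin B2 on venous endothelium. Its stand-in probe was at 1.01, 0.76 and 1.01 in KC and at 1.94, 1.78 and 1.29 in KCS, without overlap. The log2 fold change was 0.74 ± 0.23 (SE, adjusted p = 0.0277), and its second probe gave 0.81 ± 0.19 (SE, adjusted p = 0.0101). The Ephb4 call was lost when any 1 array other than KCS replicate 3 was left out (adjusted p 0.0509 to 0.0915) and within the second slide alone (adjusted p = 0.111).

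Ephb6 encodes a receptor whose kinase domain is catalytically inactive. It was at 1.43, 0.46 and 0.24 in KC and at 1.86, 1.58 and 1.65 in KCS. The groups did not overlap, but KC replicate 1 lay near the KCS samples. The log2 fold change was 0.99 ± 0.33 (SE, adjusted p = 0.0395), and the call was lost with quantile normalization (adjusted p = 0.0554) and without any 1 array other than KC replicate 1 (adjusted p 0.0765 to 0.112). Without KC replicate 1 the log2 fold change was 1.35 (adjusted p = 0.00396).

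Efnb2 encodes ephrin B2, the transmembrane ligand of EphB4 and other EphB receptors and a mark of arterial endothelium. It was at -0.34, -0.30 and -0.26 in KC and at 1.70, 2.24 and 1.62 in KCS. The KC samples lay within 0.1 of each other, and all KCS samples lay above them. The log2 fold change was 2.15 ± 0.22 (SE, adjusted p = 3.82e-04), a 4.45-fold higher relative signal. In scanner units Efnb2 read 51.0 to 55.7 in KC and 1067 to 1993 in KCS.

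**Figure D2:**
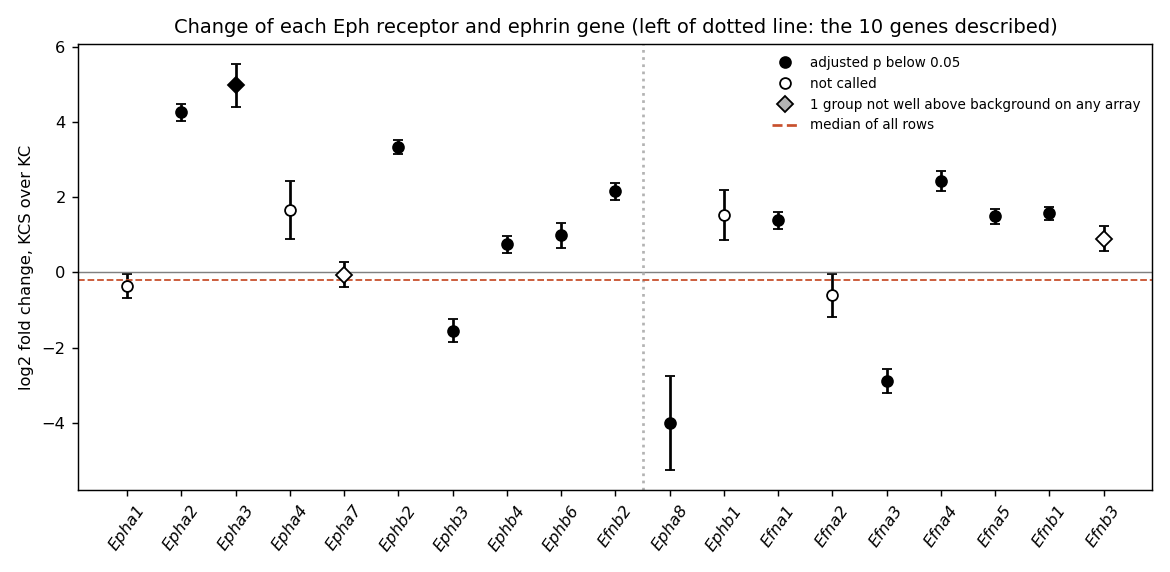
Log2 fold change of KCS over KC (y axis, point) with the standard error of the fit (bar) for the 10 genes described, left of the dotted line, and the 9 other tested genes of the family, right of it. Filled markers passed an adjusted p of 0.05, diamonds were at background throughout 1 group, and the dashed line is the median of all rows at -0.19. Epha2 is at 4.26. The point of Epha3 is fitted on background readings in KC and its bound is 3.80, so its place relative to Epha2 is not known, and Ephb2 is drawn from 1 of its 2 opposing probes. Ephb3 is the only described gene below 0 that passed, a sign that turns with spike-in scaling.

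Of the 10 genes, 5 had several probes. Both probes of Ephb4 were well above background on all arrays and were called higher. Both Epha3 probes and the second Ephb6 probe were at background in all 3 KC samples and were tested through the KCS arrays alone, so their calls are no independent check. For the second Ephb6 probe no bound above 1 could be given. Ephb2 was called higher by 1 probe and lower by the other, and the mean of its probes gave 0.12 (adjusted p = 0.591). Of the 4 probes of Epha7, 2 were bright enough to be tested, with 1 called higher at 0.96 ± 0.27 (SE, adjusted p = 0.0209) and 1 not called. The called Epha7 probe was at background in all 3 KC samples, so its size depends on background readings, and no bound above 1 could be given for it either. The genes with 1 probe, Epha1, Epha2, Epha4, Ephb3 and Efnb2, have no such check.

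**Figure D3:**
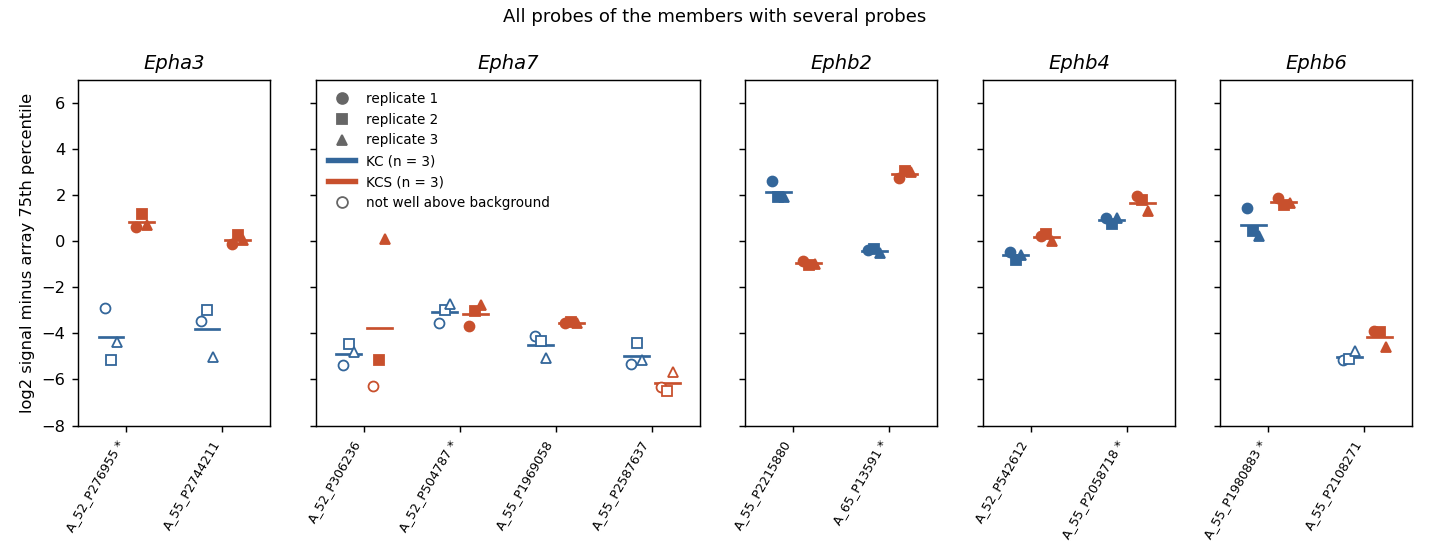
Scaled log2 signal (y axis) on each array for every probe (x axis, an asterisk marks the probe that stands for the gene) of Epha3, Epha7, Ephb2, Ephb4 and Ephb6, with lines at the group means and open markers where the probe was at background. The 2 probes of Ephb2 change in opposite directions, from 2.14 to -0.96 and from -0.42 to 2.92 in group means, while both probes of Ephb4 are higher in KCS. The KC readings of Epha3, Epha7 and the dimmer Ephb6 probe are at background.

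Within the slides, all 10 genes had the same sign on both. Epha2 was at 3.98 on the first slide and 4.39 on the second, Efnb2 at 2.05 and 2.21, the stand-in probe of Ephb2 at 3.14 and 3.44, and Ephb3 at -1.60 and -1.53. Ephb6 was at 0.44 on the first slide, which holds 1 array per group and gives no test, and at 1.26 on the second. With each array left out in turn, 5 genes stayed called every time: Epha2 (4.10 to 4.34), Epha3, Ephb2 (3.28 to 3.43), Efnb2 (1.96 to 2.27) and Ephb3 (-1.77 to -1.31). Epha3 was at background in every KC sample, and the other Ephb2 probe was called lower. Leaving out arrays therefore checks neither the size of the Epha3 change nor the direction of Ephb2. With spike-in scaling all 10 genes were called higher, but so were 87.2% of all rows. On that scale Epha2 was at 7.15, Efnb2 at 5.05 and Epha1 at 2.53, against the median of 2.70.

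**Figure D4:**
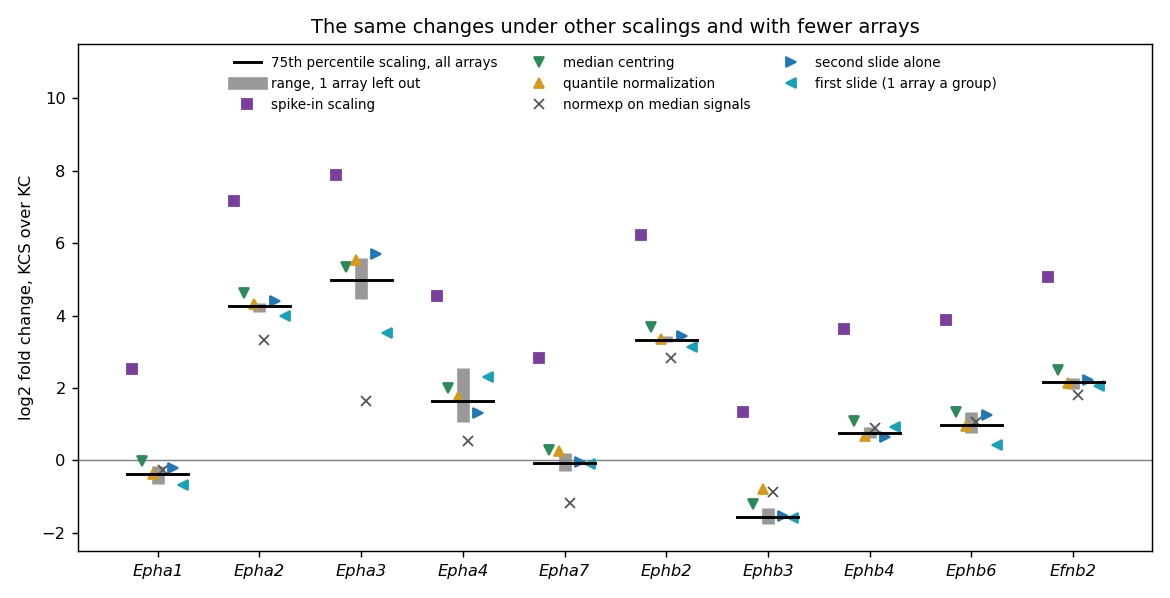
Log2 fold change of KCS over KC (y axis) of the 10 genes under other scalings and with fewer arrays. Black lines are the values with 75th percentile scaling, grey bars the range with 1 array left out, and symbols the other settings, including each slide. Spike-in scaling lifts every gene, Ephb3 from -1.55 to 1.34, and the order among Epha2, Efnb2 and Ephb3 is the same in every setting plotted.

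The rest of the family was measured alongside. Of 12 other Eph receptor and ephrin genes on the array, 9 were tested, of which 4 were called higher and 2 lower, beside 25.9% and 34.4% of all rows, with a median log2 fold change of 1.38. The ligand genes Efnb1 (1.57 ± 0.17), Efna5 (1.49 ± 0.20), Efna1 (1.38 ± 0.23) and Efna4 (2.44 ± 0.26, all SE) rose, with limma adjusted p from 4.99e-04 to 0.00260. Of the 3 Efna5 probes, 2 were called higher. The other, at background in all 3 KC samples, was not called (0.45 ± 0.20, SE, adjusted p = 0.101). For Efna4, 1 of the 3 KC samples gave a signal well above background, and its log2 fold change was 0.58 after normexp. Efna1 and Efnb1 encode ligands of EphA2 and of EphB receptors in turn. Efna3, another ephrin-A ligand gene, was lower, from 1.02 ± 0.46 in KC to -1.87 ± 0.41 in KCS (SD, n = 3, adjusted p = 5.17e-04), and was at 0.0067 with spike-in scaling. Epha8 was called lower at -4.01 ± 1.24 (SE, adjusted p = 0.0297), but was well above background on 2 KC arrays and 1 KCS array, and the call was lost without KC replicate 2 or 3 or KCS replicate 1 or 2 (adjusted p up to 0.0925). Ephb1 (1.52 ± 0.66, adjusted p = 0.0865), Efna2 (-0.61 ± 0.58, adjusted p = 0.389) and Efnb3 (0.89 ± 0.33, SE, adjusted p = 0.0553) were not called. Efnb3 was at background in all 3 KC samples. Epha5, Epha6 and Epha10 were too dim on too many arrays to be tested.

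Of 38 genes for proteins that act with Eph receptors or ephrins, 37 were tested, and 22 were called higher and 3 lower, beside the same 25.9% and 34.4% of all rows. The median log2 fold change was 0.91, or 0.76 with dim genes at their bound, and of the 32 that were well above background on all arrays 17 were called higher and 3 lower. Rgs3, whose PDZ form binds the tail of ephrin-B, rose by 3.30 ± 0.18 (SE, adjusted p = 8.75e-05), and its other 3 probes were also called higher, 1 of them with KC at background. The adaptor gene Nck2 rose by 2.15 ± 0.20, the ubiquitin ligase gene Cbl by 2.01 ± 0.20 and the phosphatase gene Ptpn1, whose product can dephosphorylate Eph receptors, by 2.16 ± 0.27 (all SE, limma adjusted p from 2.92e-04 to 7.89e-04). Pak1, a kinase downstream of RAC, was at background in all 3 KC samples, and its signal in KCS was at least 10.3-fold higher. Its adjusted p of 7.45e-05 is from the limma fit on the KC background readings and does not test that bound. Pick1, a PDZ protein that binds Eph receptors and ephrin-B, was at -1.86 ± 0.34 (SE, adjusted p = 0.00357) and Arhgef15, an exchange factor for RHOA, at -1.56 ± 0.31 (SE, adjusted p = 0.00564), both called lower. Itsn1, an exchange factor that binds EphB2, was called lower by its brightest probe (-1.42 ± 0.27, SE, adjusted p = 0.00465), and another probe well above background on all arrays was called higher (1.05 ± 0.17, SE, adjusted p = 0.00255), so its direction depends on the probe. Of its 8 tested probes 7 were called higher, but 5 of these were at background in all 3 KC samples and were tested through the KCS arrays alone. Within the second slide alone 14 of the 37 were called higher.

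Markers of other cell types moved with the same contrast. The counts below stand beside 25.9% of all rows called higher and 34.4% called lower. Of 8 endothelial genes, 6 were called higher and none lower (median log2 fold change 1.04), and their summed scaled signal was 20.7 to 24.5 in KC and 60.8, 59.3 and 33.4 in KCS replicates 1, 2 and 3. KCS replicate 3 also had the lowest KCS value of Epha2, Ephb3, Ephb4 and Efnb2 and the lowest KCS sums of the fibroblast and macrophage genes below. Its fibroblast sum was close to that of replicate 2 (1106 against 1111), and its ductal and mesothelial sums were the highest of the KCS samples. The lowest KCS value was in replicate 1 for Epha1, Epha3, Epha4, Epha7 and the stand-in probe of Ephb2, and in replicate 2 for Ephb6. Of 8 fibroblast and stellate cell genes all were called higher (median 3.11), with a sum of 199.8 to 266 in KC and 1106 to 1386 in KCS. Of 8 macrophage genes all were called higher (median 4.04, sum 20.7 to 31.8 in KC and 264 to 381 in KCS), and of 8 ductal genes 4 were called higher and 1 lower (median 2.33, sum 40.2 to 52.3 and 273 to 346). The mesothelial genes, of which Krt7 is also in the ductal list, gave 3 higher and none lower of 6 tested, with a median of 1.39 and a sum of 2.94 to 7.05 in KC and 41.0 to 55.9 in KCS. The genes of Schwann cells and nerve gave 3 higher and 2 lower of 7, with a sum of 12.2 to 15.3 in KC and 23.9 to 26.1 in KCS. Of 6 tested T cell genes 3 were called higher and 3 lower (sum 10.9 to 20.9 and 4.05 to 10.9), and all 8 islet genes were called lower (sum 917 to 1064 and 136 to 245). In KC, Fcgr1 among the macrophage genes, Ngfr among the nerve genes and Cd3g and Cd8a among the T cell genes were at background throughout. The part of these cell types in the values of the Eph and ephrin genes was not tested.

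The genes whose values over the 6 arrays were most like those of a member are given as a description. By Pearson's r among 12727 named genes well above background on all arrays, Ptprs and Spats2 were nearest to Epha2 (r = 0.9998 and 0.9995), Jmjd1c, Rest and Ss18 to Efnb2 (0.998 for each), Crtc3, Pafah1b1 and Shank3 to Ephb4 (0.996 to 0.997), and Slain2, D330023K18Rik and Phc1 to Epha4 (0.988 to 0.992). With 2 groups that lie apart, r mostly records the group difference: 2150 genes had an r above 0.95 with Epha2 and 1975 with Efnb2, but 292 with Ephb4 and 59 with Epha4.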

How the data were processed

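Total RNA of 3 KC and 3 KCS samples was hybridised to 6 Agilent arrays with 1 dye. Per the file headers, the deposited intensity values are background-corrected processed signals in scanner units from Agilent Feature Extraction 12.0.3.1, with 62976 spots per array, of which 3671 are controls. The authors' table of processed values is on a log2 scale, as deposited. Across probes it correlated at 0.999999 or more with the scanner values, scaled by the 75th percentile and centred on each probe's median, and it was used as an alternative. Its column medians were -0.01, 0.05 and 0.10 for KC and -0.05, -0.03 and -0.04 for KCS replicates 1, 2 and 3.

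Here each array's log2 processed signals were taken minus their 75th percentile. Outlier spots were left out (none of a member), and spots of 1 probe were averaged. Probes well above background on at least 3 arrays were kept. Accessions without version were matched to RefSeq (GRCm38.p6), which named 33767 of 56605 probes. The probe with the highest mean stood for its gene. KCS was compared with KC in limma 3.58.1 (lmFit and eBayes, two-sided, R 4.3.3), with Benjamini-Hochberg adjustment over all 27102 rows and a threshold of 0.05. Where a whole group was at background, meaning that its arrays all failed the test of being well above it, the fold is a bound. It sets the bright group's mean against a floor, which on each dim array is the lowest signal that passed or the probe's own signal, whichever is higher. Adjusted p-values of single probes come from a fit of 34485 probes. The steps were tested on simulated data. Figures used Python 3.11.15 and matplotlib 3.10.9.

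Named are all members, the other family genes, up to 5 signalling partners called in each direction with the smallest p, and the 3 genes most like each of 4 members. Some items that these rules select are not reported here. The members and lists were chosen with earlier results of these data known. Alternatives were other scalings, filters, probe rules and variance settings, blocks for replicate number and slide, the second slide alone and each array left out. The planned correction on mean signals was not run, since the scanner files given here carry median and not mean signals, and normexp (offset 50) on the median signals was added after the data were seen. Arrays give no counting depth, and their number limits the precision.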

Additional observations from a re-analysis of the deposited data

How the results depend on the processing

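The directions of Epha2, Epha3, Ephb4, Ephb6 and Efnb2 held in every alternative in which they were fitted. With spike-in scaling, Epha1 was at 2.53, Epha7 at 2.84, Ephb3 at 1.34, Efna2 at 2.29 and Efna3 at 0.0067, all reversed, with 10 of the members called higher and 0 lower, 7 and 0 of the other family genes, and 37 and 0 of the partners. Epha7, at -0.06, was also at 0.26 with quantile normalization, 0.30 with median centring, 0.45 with probes averaged per gene and 0.96 with the dimmest probe, and ran from -0.30 to 0.20 with 1 array left out, and it was called lower with normexp, at -1.18 (adjusted p = 1.08e-04). Ephb2 was at -3.09 with its dimmest probe, which makes 2 members lower. With normexp on the median signals, an alternative chosen after seeing the data, Ephb1 was at -0.41 and Efnb3 at -0.98, and 2 members, 5 other family genes and 8 partners were called lower, beside 14916 of all 27102 rows. Efnb3, at background throughout KC, was called higher with quantile normalization (1.30, adjusted p = 0.0292) and median centring (1.24, adjusted p = 0.025). It was also called higher with spike-in scaling, within the second slide and without KC replicate 1. Within the second slide alone 14 partners were called higher, against 22. Without the filter on dim probes 31885 of 46300 rows were called, and of the 12 other family genes 4 were called higher and 4 lower. The family genes this adds, Epha5, Epha6 and Epha10, were read from probes at background throughout KC, so calls on them rest on background readings. Of the other family genes, 1 was called lower when all arrays had to be well above background, 1 within the second slide, and 1 to 2 with 1 array left out. With 1 array left out, 13400 to 15283 rows were called, against 16345, and 4 to 5 members, 4 to 5 other family genes and 16 to 23 partners higher, with 1 member and 3 to 4 partners lower. Epha3 was at 1.64 and Epha4 at 0.54 with normexp, and Ephb3 at -0.86 with normexp and -0.80 with quantile normalization. The cause of these shifts was not tested.

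The replicate numbers do not pair the samples by the rule used: deviations from the group means correlated at 0.331, 0.0433 and 0.143 for replicates 1, 2 and 3, and KC replicate 2 correlated best with KCS replicate 3 (0.0880). The replicate 1 samples shared the first slide. KC and KCS samples on the same slide correlated at 0.0433 to 0.331, and those on different slides at -0.268 to -0.122. With the replicate number as a block, 16452 rows and 7 members higher were called. The members called higher then included Epha4 (adjusted p = 0.0273).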

Other observations

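Single readings stand out in 2 of the receptor genes. One Epha7 probe, which was too dim to be tested, read 372 scanner units on the array of KCS replicate 3 and 1.61 to 11.96 on the other 5, while the other 3 Epha7 probes read 51.5, 29.3 and 6.74 on that array, within or near their range on the other KCS arrays. Epha4 read 70.1 scanner units in KC replicate 2 and 8.70 and 12.1 in KC replicates 1 and 3.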
